A study of Mus musculus with 6 samples.

Results

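The hair bundle and mechanotransduction genes described here are 10 genes whose proteins build the bundle of stereocilia on inner ear hair cells or the machinery that turns its deflection into current: Myo7a, Ush1c, Ush1g, Cdh23, Pcdh15, Espn, Strc, Tmc1, Loxhd1 and Ptprq. They were found by name among the non-control probes of a mouse gene expression array, where they account for 10 of 37067 named genes and 29 of 56605 probes. Cochlear RNA was hybridised to 6 one-colour arrays, 1 for each of 6 groups of female C57BL/6 mice aged 6 weeks, and the design text gives 6 mice per group. The sources used here do not say whether these 6 were pooled. The baseline group had neither noise nor an injection. The noise only group was exposed to intense noise for 2 h and received no injection, and no time between noise and sampling is given for it. The remaining groups had the same noise and directly afterwards received either saline or the synthetic glucocorticoid dexamethasone (10 mg/kg) by the intraperitoneal route, with sampling at 12 h or 24 h. Every group other than baseline was therefore exposed to noise. The strain limits the model, since C57BL/6 mice carry an allele of Cdh23 linked to early-onset hearing loss, which all 6 groups share.

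Stereocilia are actin-filled protrusions arranged in rows of rising height. Tip links made of cadherin-23 and protocadherin-15 join the rows and pull on transduction channels that contain TMC1, while a complex of myosin VIIa, harmonin and sans holds the links to the actin core. Loss of these proteins causes deafness in mice and people, and the bundle is a known site of damage by intense noise.

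The signal of a probe is given as a level, the log2 of its processed signal divided by the 75th percentile of the same array, so a level of 0 equals that percentile. Levels of different probes are not compared, because probes differ in how brightly they report. A probe counted as measured where the scanner software placed it well above background on each of the 2 arrays compared, and a difference of at least 1.5-fold was used as a mark of size. With 1 array per group there is no replicate check and no p-value for 2 arrays set against each other. The ± after a difference is the half-width of a 95% interval from the spot error of the software, which leaves out the variation between animals. Of the 29 member probes, 15 were well above background on all 6 arrays, 7 on some arrays and 7 on none. Over all probes 34229 of 56605 were above background on all 6. Each gene is represented by its brightest probe, called probe 1, which was above background on all 6 arrays for 9 of the 10 genes. The exception was Cdh23, whose probe 1 was so on baseline, noise only, saline 12 h and dexamethasone 24 h. No member spot was saturated, and precision is limited by the number of arrays.

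Per array, the software marked 63.0% to 70.3% of probes as well above background, and the scaling percentile ranged from 537 to 679 signal units. Both 12 h arrays lay on a different slide from the other 4, so a comparison of a 12 h array with baseline also compares slides, and slide and time cannot be told apart. Of 10 cochlear defining genes, 9 were above background on all 6 arrays, among them the cochlin gene Coch and the otospiralin gene Otos. The outer hair cell motor gene Slc26a5 was on none of them. Marker lists of neighbouring tissues differed widely between arrays and are given beside the results.

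The sequences of 7 member probes show what the array read. Those of Ush1c and Ptprq are shown because both probes of each gene were higher than baseline in noise only and saline 24 h, that of Strc because it followed Ush1c in size after noise, that of Espn because its probe 1 and probe 2 overlap, that of Cdh23 because it was near background, and that of Pcdh15 because its probes moved in opposite directions. Each is 60 bases, written 5′ to 3′ as in the files, and the capitals in Espn mark the 18 bases shared with its probe 2. Positions are those of the files on mm9, and whether a probe lies in a coding or an untranslated part of an exon was not analysed here.
Ush1c probe 2, chr7:53460570-53460629, minus strand: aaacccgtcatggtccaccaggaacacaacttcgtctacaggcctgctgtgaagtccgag
Ptprq probe 1, chr10:107000240-107000299, minus strand: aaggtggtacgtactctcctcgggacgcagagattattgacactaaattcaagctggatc
Ptprq probe 2, chr10:107090544-107090603, minus strand: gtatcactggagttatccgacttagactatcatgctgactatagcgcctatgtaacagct
Strc probe 1, chr2:121190793-121190852, minus strand: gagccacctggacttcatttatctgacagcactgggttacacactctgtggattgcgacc
Espn probe 1, chr4:151495230-151495289, minus strand: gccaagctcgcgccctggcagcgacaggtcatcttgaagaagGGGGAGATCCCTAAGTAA
Cdh23 probe 1, chr10:59767612-59767671, minus strand: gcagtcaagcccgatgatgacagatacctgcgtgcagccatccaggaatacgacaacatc
Pcdh15 probe 3, chr10:74105072-74105131, plus strand: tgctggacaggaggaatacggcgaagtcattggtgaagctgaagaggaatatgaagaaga

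Across the 6 arrays many members shared a pattern. In noise only and both 24 h arrays, probe 1 of Myo7a, Ush1c, Espn, Tmc1, Loxhd1 and Ptprq read higher than in baseline and both 12 h arrays, but the step between these sets exceeded spot error for Espn, Tmc1 and Loxhd1 only. The mean level of the 9 genes above background on all arrays, taken around each gene's own mean, was -0.27 in baseline, 0.23 in noise only, -0.40 in saline 12 h, -0.21 in dexamethasone 12 h, 0.42 in saline 24 h and 0.22 in dexamethasone 24 h. The lowest array by this measure was saline 12 h and the highest saline 24 h. In bulk tissue, fewer cells of a type and less RNA per cell cannot be told apart.

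**Figure D1:**
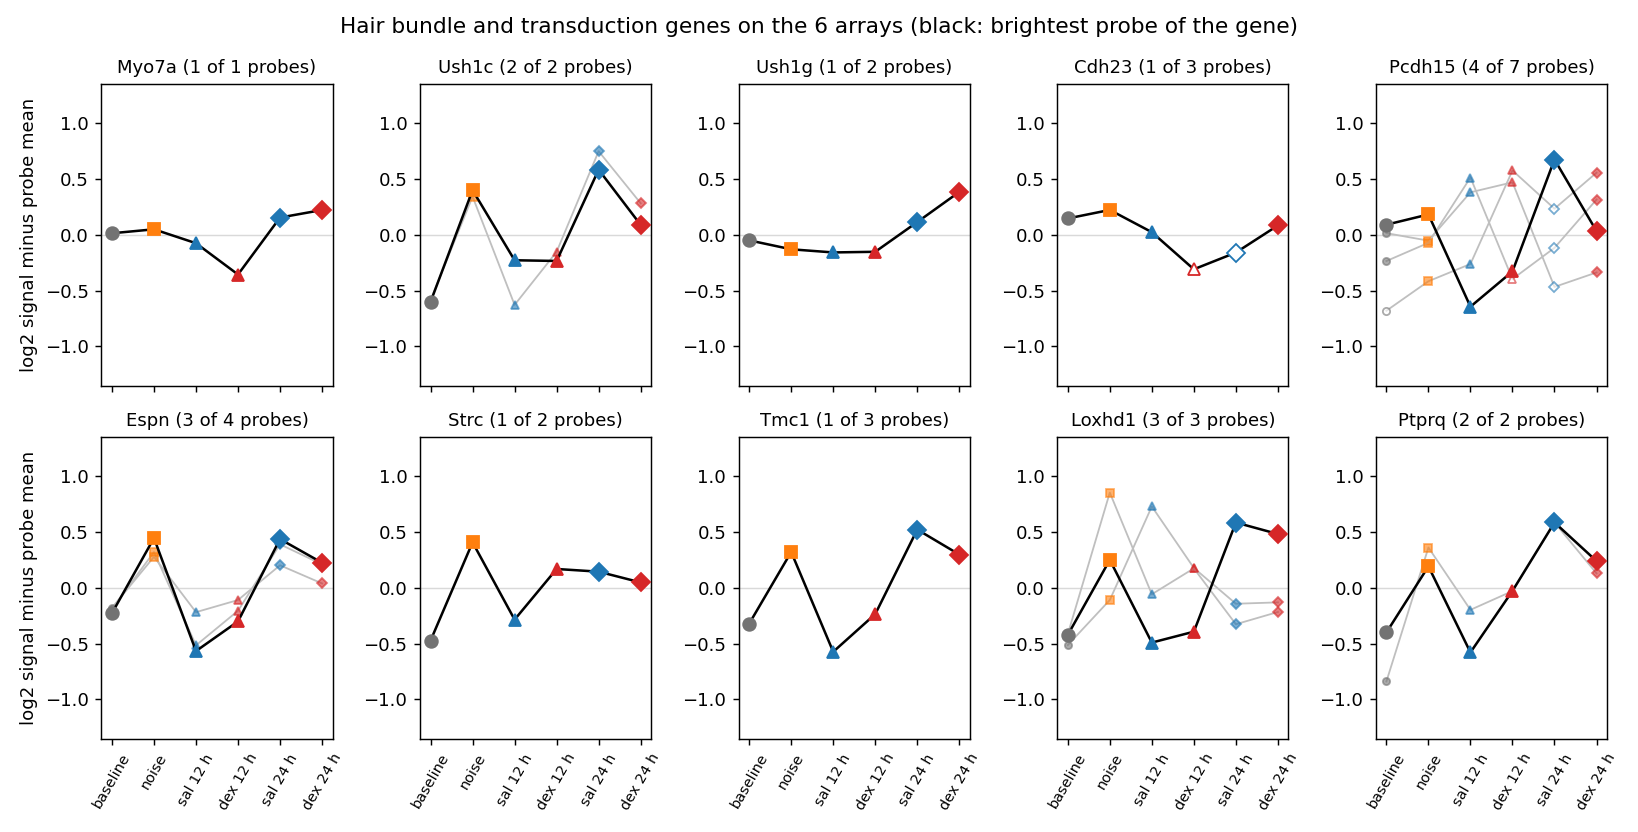
Log2 signal of each member's probes minus the probe's own mean (vertical axis) on the 6 arrays (horizontal axis), for probes well above background on at least 4 arrays; black lines are the brightest probe of a gene, grey lines its other probes, and open symbols are arrays where the probe was not well above background. The brightest probes of Espn, Tmc1, Loxhd1 and Ptprq are high in noise only and at 24 h, while those of Myo7a and Ush1g span at most 0.58 on this scale.

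Among the cytoplasmic proteins of the tip-link anchor, Ush1c moved most and Myo7a and Ush1g least. Ush1c encodes harmonin, the scaffold that ties the upper end of the tip link to actin. Its probe 1, at chr7:53450728-53450787, had a level of 1.20 in baseline, 2.20 in noise only, 1.57 in saline 12 h, 1.56 in dexamethasone 12 h, 2.38 in saline 24 h and 1.89 in dexamethasone 24 h. Baseline was the lowest array and saline 24 h the highest, though no step between neighbours in the order exceeded its spot error. Probe 2, dimmer and at another place in the gene, read -2.79 in baseline, -1.87 in noise only, -2.84 in saline 12 h, -2.36 in dexamethasone 12 h, -1.46 in saline 24 h and -1.93 in dexamethasone 24 h. Both probes thus placed saline 24 h highest and noise only above baseline, and they correlated with r = 0.93 over the 6 arrays.

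Myo7a, which encodes the myosin motor of the complex, had levels of 0.07 in baseline, 0.11 in noise only, -0.02 in saline 12 h, -0.30 in dexamethasone 12 h, 0.21 in saline 24 h and 0.28 in dexamethasone 24 h. These 6 values span 0.58, and each neighbouring pair lay within spot error. Ush1g, which encodes the scaffold sans, read -0.72 in baseline, -0.80 in noise only, -0.83 in saline 12 h, -0.82 in dexamethasone 12 h, -0.55 in saline 24 h and -0.29 in dexamethasone 24 h. Dexamethasone 24 h was its highest array, and again no neighbours differed beyond spot error. The second Ush1g probe was above background on no array.

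Of the tip-link cadherins, Cdh23 lay near background and Pcdh15 gave conflicting probes. Cdh23 encodes the upper part of the link. Its probe 1 had levels of -4.42 in baseline, -4.34 in noise only, -4.54 in saline 12 h, -4.87 in dexamethasone 12 h, -4.72 in saline 24 h and -4.48 in dexamethasone 24 h, and those of dexamethasone 12 h and saline 24 h were not well above background. Its other 2 probes were so on no array.

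Pcdh15, the lower part of the link, had 7 probes, of which only probe 1, at chr10:74112334-74112393, was above background throughout. It read -2.82 in baseline, -2.73 in noise only, -3.56 in saline 12 h, -3.24 in dexamethasone 12 h, -2.24 in saline 24 h and -2.88 in dexamethasone 24 h. Saline 12 h was lowest and saline 24 h highest, and the step from noise only up to saline 24 h, 0.49 ± 0.43, exceeded spot error. Probe 2 read -4.07 in baseline and -3.71 in saline 12 h, and probe 3 read -4.91 and -4.16, so both were higher at 12 h where probe 1 was lower. Pcdh15 produces many splice forms, and which of them each probe detects was not analysed here.

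Espn encodes espin, which bundles the actin core of the stereocilia. Its probe 1 had levels of -1.29 in baseline, -0.62 in noise only, -1.63 in saline 12 h, -1.37 in dexamethasone 12 h, -0.63 in saline 24 h and -0.84 in dexamethasone 24 h. The order falls into a low set of baseline and both 12 h arrays and a high set of noise only and both 24 h arrays, separated by a step of 0.45 ± 0.40. Probe 3, which lies apart from the overlapping probes 1 and 2, gave the same sets in a narrower range, with levels from -3.33 to -2.83, and correlated with probe 1 at r = 0.96. The step between the sets lay within spot error for probe 3 (0.15 ± 0.48) and for probe 2 (0.40 ± 0.41).

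Strc and Ptprq encode proteins of the links between stereocilia. Strc encodes stereocilin, part of the connectors near the tips and of the attachment to the tectorial membrane. Its probe 1 read -3.62 in baseline, -2.74 in noise only, -3.43 in saline 12 h, -2.98 in dexamethasone 12 h, -3.00 in saline 24 h and -3.10 in dexamethasone 24 h, with baseline lowest and noise only highest. Ptprq encodes a membrane phosphatase of the shaft connectors. Its probe 1 had levels of -2.06 in baseline, -1.46 in noise only, -2.23 in saline 12 h, -1.68 in dexamethasone 12 h, -1.07 in saline 24 h and -1.42 in dexamethasone 24 h. Probe 2 read -2.52, -1.32, -1.88, -1.71, -1.09 and -1.55 on the same arrays in that order. Both Ptprq probes were highest in saline 24 h, but the lowest array was saline 12 h for probe 1 and baseline for probe 2.

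Tmc1 encodes a pore-forming subunit of the transduction channel. Its probe 1, at chr19:20857948-20858007, had levels of -1.15 in baseline, -0.51 in noise only, -1.40 in saline 12 h, -1.06 in dexamethasone 12 h, -0.31 in saline 24 h and -0.53 in dexamethasone 24 h. As with Espn, noise only and both 24 h arrays lay above the other 3, and the step between the sets was 0.53 ± 0.40. The other 2 Tmc1 probes were above background on 1 array and on none.

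Loxhd1, needed for transduction in mature hair cells, had 3 probes above background on all arrays that did not move together. Probe 1 read -2.68 in baseline, -2.00 in noise only, -2.74 in saline 12 h, -2.65 in dexamethasone 12 h, -1.67 in saline 24 h and -1.77 in dexamethasone 24 h. Probe 2 was highest in saline 12 h, at -1.89 against -3.13 in baseline, and probe 3 was highest in noise only, at -2.87 against -4.13. Correlations between these probes over the 6 arrays were -0.37, 0.05 and 0.19, so the values of Loxhd1 depend on the probe read.

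Against baseline, the noise only array was higher for most members. Among the 10 members measured, 6 were higher by at least 1.5-fold and 0 were lower, where 6.39% of all 23997 measured genes were higher by that much, 8.7% lower and 15.1% either. The median difference of the members was 0.62 on the log2 scale, against -0.01 for all genes. Ush1c was 2.00-fold higher (1.51 to 2.64, spot error only), Strc 1.84-fold (1.34 to 2.52) and Espn 1.59-fold (1.21 to 2.11). Loxhd1 (0.67 ± 0.41), Tmc1 (0.64 ± 0.40) and Ptprq (0.59 ± 0.41) followed on the log2 scale. The differences of Myo7a (0.04 ± 0.40), Ush1g (-0.08 ± 0.40), Cdh23 (0.08 ± 0.62) and Pcdh15 (0.09 ± 0.42) lay within spot error, and scaling on spike-in probes turned those of Myo7a, Cdh23 and Pcdh15 just below 0.

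The count after noise depends on the processing. Ptprq sat at the mark and fell below it when the percentile was taken over spots or over probes detected on all arrays, or under quantile normalization, which left 5 members. With the mean over a gene's probes 5 were also left, where Espn dropped to 0.54 and Ptprq was 0.89. Scaling on spike-in probes left 2, with the median of all genes at -0.12. Normexp background correction left 1 of 10, where 8.92% of all measured genes were past the mark in either direction. By single probes, 9 of 18 measured were at least 1.5-fold higher and 0 lower, where 7.07% of 37258 measured probes were higher and 8.09% lower. The 9 include probe 2 of Ush1c (0.92 ± 0.42) and probe 2 of Ptprq, 2.29-fold higher (1.73 to 3.05).

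In saline 24 h, most members were again higher than in baseline. Among the 9 members measured, 6 were higher by at least 1.5-fold and 0 were lower, where 4.94% of 22816 measured genes were higher, 5.3% lower and 10.2% either. The median was 0.66 against 0.01 for all genes. Ush1c was 2.27-fold higher (1.72 to 2.99), Ptprq 1.98-fold (1.49 to 2.62), Tmc1 1.79-fold (1.36 to 2.37) and Strc 1.53-fold (1.09 to 2.15), and Loxhd1 (1.00 ± 0.42) and Espn (0.66 ± 0.40) were also higher on the log2 scale. The value of Loxhd1 is that of probe 1, while its probes 2 and 3 gave 0.37 ± 0.45 and 0.09 ± 0.64, within spot error. Pcdh15 lay just under the mark at 0.58 ± 0.43. Myo7a (0.14 ± 0.40) and Ush1g (0.16 ± 0.40) were within spot error, and their sign turned under spike-in scaling. This scaling left 3 members past the mark, with the median of all genes at -0.29.

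Saline 12 h, which lies on the other slide, did not share this pattern. Among the 10 members measured, 0 were higher by at least 1.5-fold and 1 was lower, where 14.7% of 24122 measured genes were higher, 10.7% lower and 25.4% either. The median was -0.12 against 0.06. The member past the mark was Pcdh15, 1.66-fold lower by probe 1 (1.21 to 2.28), but its probes 2 and 3 were higher by 0.36 and 0.75, and the mean over its probes was 0.13. Probe 2 of Loxhd1 was 2.36-fold higher and probe 2 of Ptprq 1.56-fold higher while their probes 1 lay within spot error of baseline. Spike-in scaling put all 10 members below baseline, 9 of them by at least 1.5-fold. Under it 65.8% of all measured genes were that far apart and 3.00% of those were higher. The median of all genes moved to -0.76.

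These 3 comparisons share the baseline array, so a low or high reading on it enters all of them. The median of all genes under spike-in scaling was -0.12 for noise only and -0.29 for saline 24 h, against member medians of 0.52 and 0.37. A change relative to another gene on the same arrays does not depend on the scaling. Myo7a was taken as a reference after the values had been seen, as a member that moved little, so a difference from it is partly built in. Relative to Myo7a, Ush1c, the member with the largest difference by probe 1, was higher by 0.96 ± 0.57 in noise only and by 1.04 ± 0.57 in saline 24 h. Of the 8 members set against Myo7a, 5 differed from it beyond spot error in noise only and 4 in saline 24 h.

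**Figure D2:**
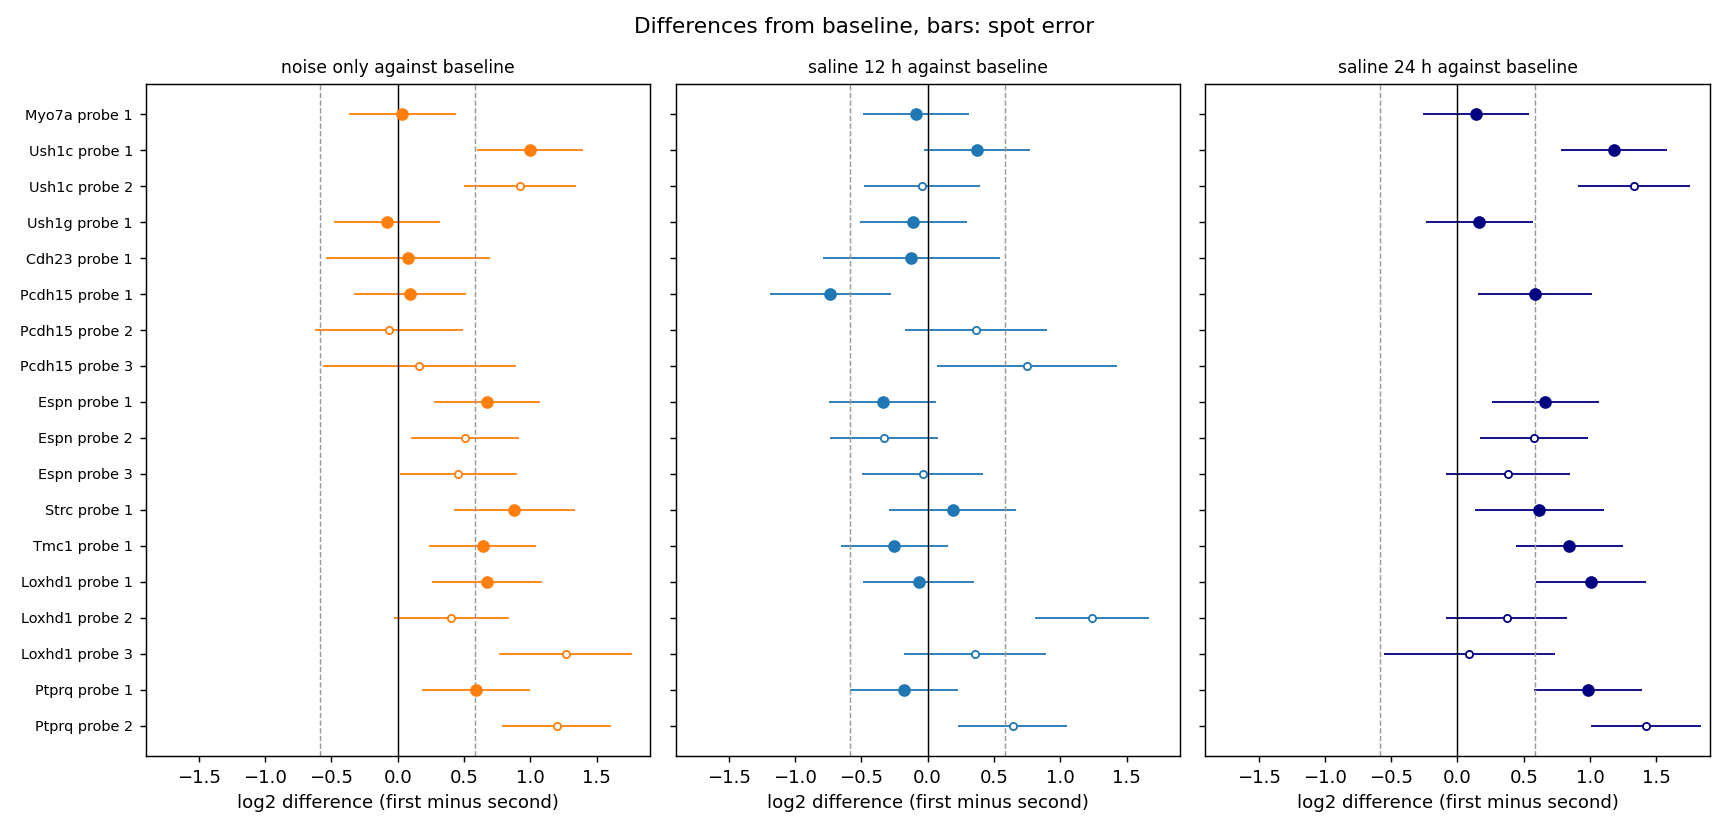
Log2 difference from baseline (horizontal axis) of each measured member probe in noise only, saline 12 h and saline 24 h; filled points are the brightest probe of a gene, open points its other probes, bars 95% intervals from spot error and dashed lines 1.5-fold. Both Ush1c and both Ptprq probes lie right of the dashed line in noise only and saline 24 h, and the probes of Pcdh15 and Loxhd1 scatter to either side of each other in saline 12 h.

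Dexamethasone against saline gave smaller differences. At 12 h, 0 of 9 measured members were at least 1.5-fold apart in either direction, where 12.8% of 24016 measured genes were, 5.23% higher and 7.56% lower. The median was 0.26 against -0.03 for all genes, and 7 of the 9 lay above 0, where 11302 of the 24016 measured genes did. Among probes 1, only that of Ptprq differed beyond spot error (0.55 ± 0.41), while its probe 2 gave 0.17 ± 0.41. Among other measured probes, probe 2 of Ush1c (0.47 ± 0.43) and probe 4 of Pcdh15 (0.84 ± 0.77, past 1.5-fold) were higher beyond spot error and probe 2 of Loxhd1 was lower (-0.55 ± 0.42). Strc (0.45 ± 0.46), Tmc1 (0.34 ± 0.40), Pcdh15 (0.32 ± 0.48) and Espn (0.26 ± 0.41) lay within it, and the sign of Ush1c (-0.01 ± 0.40) turned under 5 alternative scalings. Under spike-in scaling 4 members were at least 1.5-fold higher with dexamethasone, but the median of all genes also rose, from -0.03 to 0.25. The shares of all genes above belong to the main scaling and are not comparable with this count.

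At 24 h, 1 of 9 members was at least 1.5-fold lower and 0 were higher, where 5.89% of 22561 measured genes were lower, 5.22% higher and 11.1% either. The median was -0.21 against -0.01 for all genes, and 2 of the 9 lay above 0, where 11092 of the 22561 measured genes did. Pcdh15 was 1.56-fold lower with dexamethasone (1.15 to 2.12) by probe 1. Probes 2 to 5 were above background with dexamethasone and not with saline, and they read the other way. Their differences were 0.13 ± 0.90, 0.43 ± 0.92, 0.32 ± 0.83 and 3.02 ± 2.87 in that order. Only that of probe 5 exceeded spot error. Ush1c was 1.41-fold lower (1.07 to 1.86), with its probe 2 at -0.46 ± 0.42. Probe 2 of Ptprq was lower beyond spot error (-0.45 ± 0.41). Probe 1 of Ptprq gave -0.34 ± 0.41, Tmc1 -0.22 ± 0.40, Espn -0.21 ± 0.40 and Ush1g 0.27 ± 0.40, all within spot error. Each of these comparisons shares its saline array with the comparison of saline against baseline. At a stricter mark of 2-fold, probe 1 of Ush1c and of Loxhd1 was past it in saline 24 h (3.44% of all genes). By probe 1, no member was past it in noise only (5.82%), saline 12 h (7.85%), dexamethasone 12 h (3.54%) or dexamethasone 24 h (3.17%). Other measured probes were past it, all higher than baseline. In noise only these were Loxhd1 probe 3 (2.40-fold) and Ptprq probe 2 (2.29-fold), and in saline 12 h Loxhd1 probe 2 (2.36-fold). In saline 24 h they were Ush1c probe 2 (2.51-fold) and Ptprq probe 2 (2.68-fold).

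**Figure D3:**
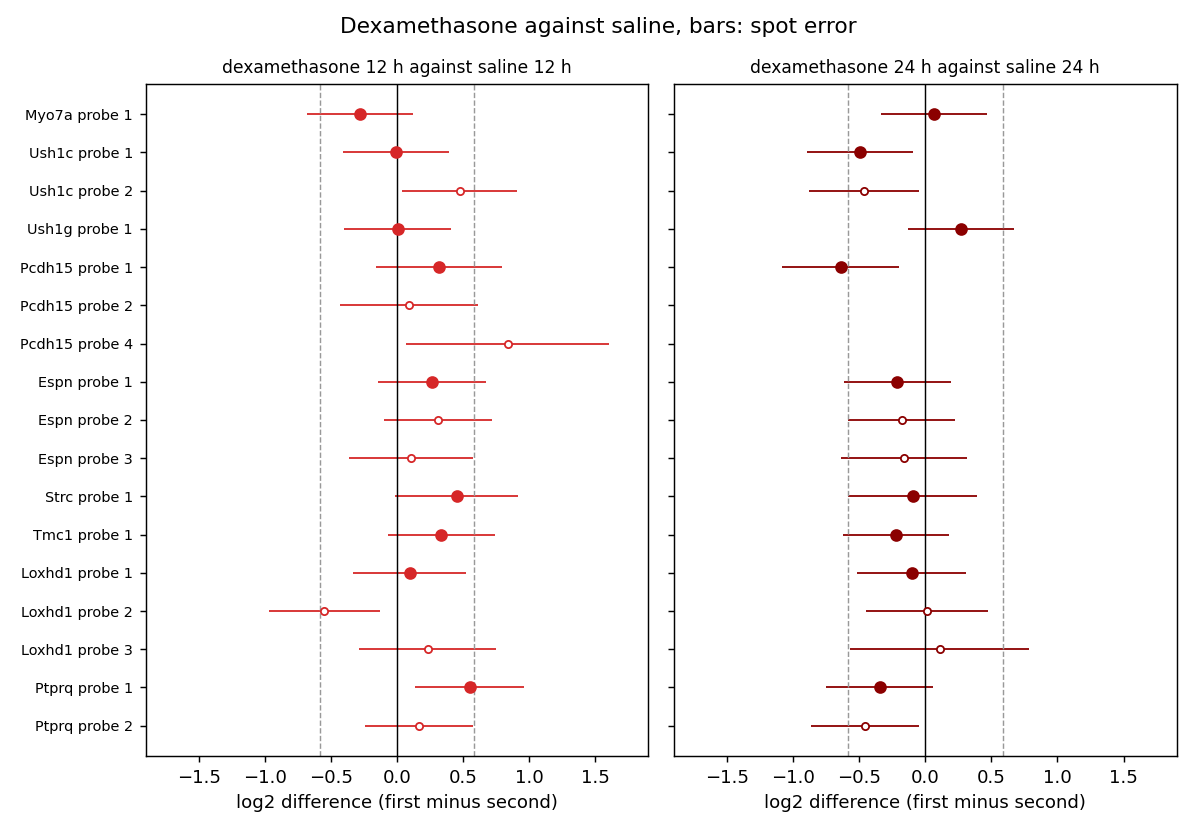
Log2 difference of dexamethasone minus saline (horizontal axis) of each measured member probe at 12 h and 24 h; filled points are the brightest probe of a gene, open points its other probes, bars 95% intervals from spot error and dashed lines 1.5-fold. Most brightest probes lie right of 0 at 12 h and left of 0 at 24 h, with most bars crossing 0.

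Over both times, the design has 2 arrays with dexamethasone and 2 with saline. A limma fit with time as covariate over 24598 genes called 0 genes at an adjusted p under 0.05, which is 0% of genes, and 0 of the 10 members tested. At an unadjusted p under 0.05 there were 3607 genes and 0 members. The lowest adjusted p among members, by limma with Benjamini-Hochberg adjustment, was 0.54 for Ush1c, with a log2 difference of -0.25 (SE 0.16). Strc had the highest difference, 0.18 (SE 0.25), and the member median was 0.01 against -0.01 for all genes. Since the 12 h and 24 h differences of most members have opposite signs, they partly cancel in this fit, and the difference between times was not tested.

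The other genes of the bundle and of transduction had smaller median differences, and the lists were not tested against each other. Their mean level, taken around each gene's own mean, was -0.06 in baseline, 0.12 in noise only, -0.17 in saline 12 h, -0.11 in dexamethasone 12 h, 0.15 in saline 24 h and 0.08 in dexamethasone 24 h. As for the members, saline 12 h was lowest, saline 24 h highest and noise only next highest. Of 31 listed, 28 were measured in all 5 comparisons, and Myo3a was above background on no array. After noise, 6 of 28 were at least 1.5-fold higher and 1 lower, against 6.39% and 8.7% of all measured genes. The list median was 0.20. The higher ones were Grxcr1 (1.06), a regulator of stereocilia growth, Myo15 (0.80), the myosin that carries elongation factors to the tips, Pdzd7 (0.78), a scaffold of the ankle links, the calcium pump gene Atp2b2 (0.75), Ankrd24 (0.68), a rootlet protein, and Tprn (0.61), found at the stereocilia base. The lower one was Myo3b (-1.30), a myosin of the stereocilia tips.

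In saline 24 h, 6 of 28 were again higher and 1 lower, against 4.94% and 5.3% of all measured genes. The list median was 0.19. Myo15 (1.03), Grxcr1 (0.93), Ankrd24 (0.81), Xirp2 (0.81) and Pdzd7 (0.77) were followed by the actin cross-linker gene Fscn2 (0.64), and Elmod1 was lower (-0.68). Grxcr1, Myo15, Pdzd7 and Ankrd24 were thus past the mark in both comparisons, which share the baseline array. In saline 12 h, 14.7% of all measured genes were higher and 10.7% lower. Of the 28, 2 were higher, Xirp2 (0.67) and the channel subunit gene Tmie (0.62), and 4 were lower. Those were the tip scaffold gene Whrn (-1.33), the ankle-link receptor gene Adgrv1 (-0.90), Atp2b2 (-0.64) and Grxcr2 (-0.60), and the list median was -0.10.

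With dexamethasone, the same list had 1 gene higher and 1 lower at 12 h, Eps8 (0.63), which regulates actin at the tips, and Myo3b (-0.97). At 24 h, Whrn was higher (0.66) and Ankrd24 (-0.87) and Fscn2 (-0.70) lower. Over all measured genes, 5.23% were higher and 7.56% lower at 12 h, and 5.22% and 5.89% at 24 h. In the limma fit, 0 of these 28 genes were called.

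Hair cell genes outside the bundle were measured for 18 of 20 listed. After noise, 5 were at least 1.5-fold higher and 1 lower (6.39% and 8.7% of all genes), with a median of 0.36. In saline 24 h again 5 were higher and 1 lower (4.94% and 5.3% of all genes), with a median of 0.33. In noise only the calcium sensor gene Cabp2 (0.90), the vesicular glutamate transporter gene Slc17a8 (-0.65), the acetylcholine receptor gene Chrna10 (0.64) and Smpx (0.64) had the largest differences. In saline 12 h, 4 were higher and 5 lower (14.7% and 10.7% of all genes). They were led by the receptor gene Chrna9 (2.19), the muscle and hair cell gene Lmod3 (1.63), Kcnab1 (-1.32) and the transcription factor gene Pou4f3 (-1.19). With dexamethasone, 2 were higher and 3 lower at 12 h (5.23% and 7.56% of all genes). At 24 h, 1 was higher and 2 lower (5.22% and 5.89% of all genes).

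Marker lists of other tissues moved with these arrays. Of the 14 cerebellar genes, 12 were above background on all 6 arrays, and their signals summed to 39.9 times the 75th percentile in baseline, 166 in noise only, 119 in saline 12 h, 130 in dexamethasone 12 h, 49.4 in saline 24 h and 32.7 in dexamethasone 24 h. All 13 measured cerebellar genes were at least 1.5-fold higher in noise only than in baseline, and 5 of 13 in saline 24 h. The shares of all measured genes were 6.39% and 4.94%. The 12 skeletal muscle genes summed to 317 in baseline, 502 in noise only, 1042 in saline 12 h, 746 in dexamethasone 12 h, 566 in saline 24 h and 388 in dexamethasone 24 h. The 8 secretory gland genes summed to 409, 336, 1014, 1577, 319 and 312 on the same arrays in that order, and the 11 of 12 marrow and blood genes above background on all arrays to 947, 517, 1345, 898, 714 and 545.

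Within the cochlea, the 15 of 16 supporting cell genes above background on all arrays summed to 149 in baseline, 185 in noise only, 147 in saline 12 h, 141 in dexamethasone 12 h, 207 in saline 24 h and 151 in dexamethasone 24 h. The 12 spiral ganglion neuron genes summed to 276, 226, 149, 182, 236 and 326 on the same arrays in that order, the 9 cochlear defining genes to 303, 240, 304, 242, 316 and 199, the 7 of 8 melanocyte genes to 54.8, 52.4, 37.5, 29.5, 60.3 and 32.1, and the 8 macrophage genes to 47.4, 37.6, 42.4, 31.7, 45.8 and 40.5. Among the markers of these lists, the melanocyte gene Oca2 was above background on no array. Sums are led by the brightest genes of a list, and means taken around each gene's own mean can differ from them. By such means noise only lay above baseline for cochlear defining genes (0.18 against 0.07) and for melanocyte genes (0.39 against 0.06), whereas their sums were lower. Supporting cell genes had means of 0.17 in noise only, 0.15 in saline 24 h and -0.20 in saline 12 h. The part of other tissues and cell types in the differences of the members, and of the other bundle and hair cell genes, was not tested.

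**Figure D4:**
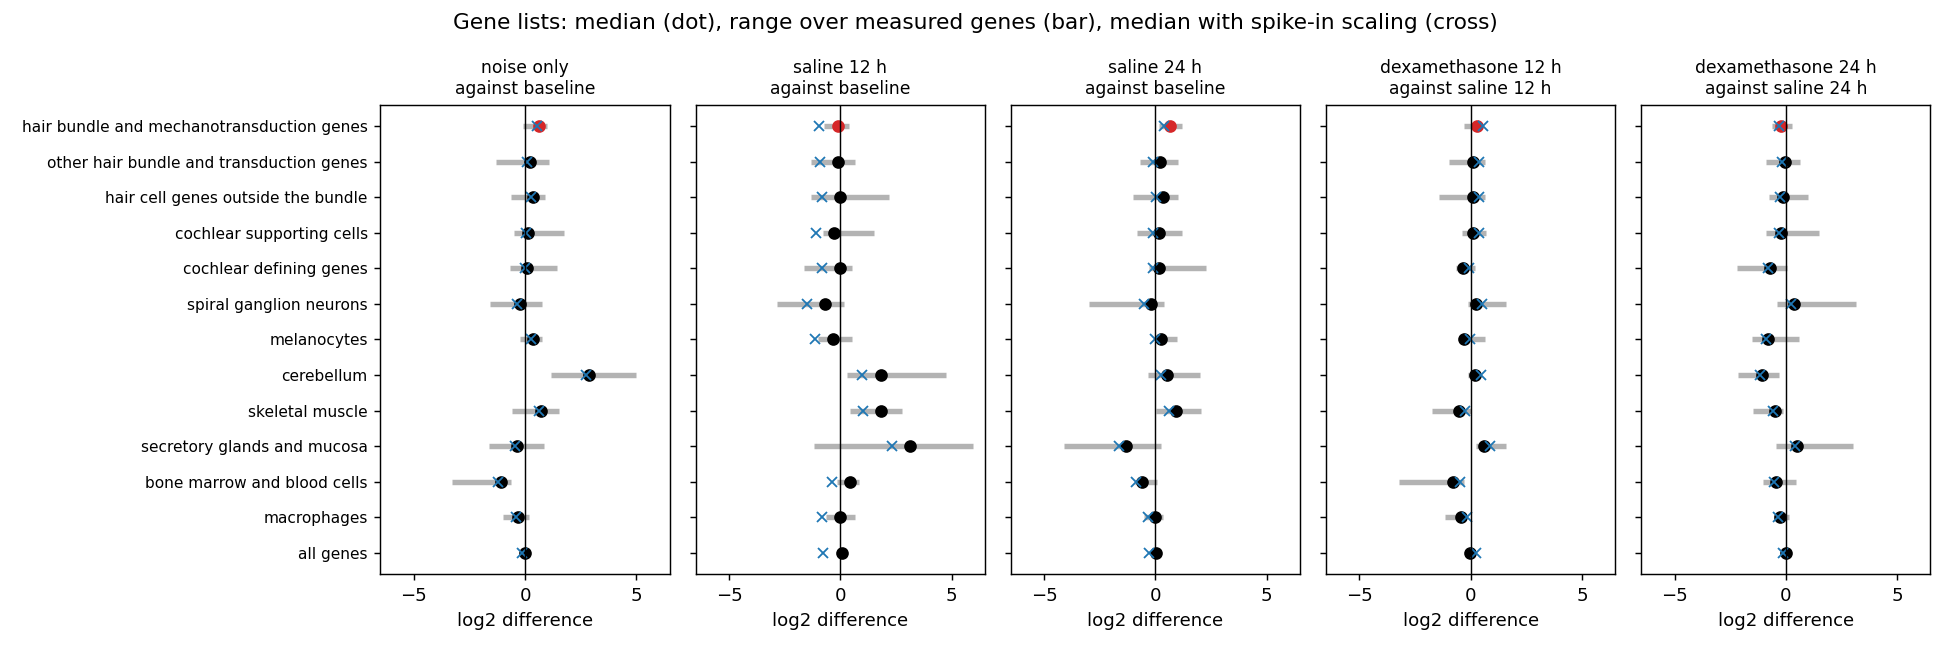
Log2 difference (horizontal axis) of each gene list in the 5 comparisons; dots are the median over measured genes, grey bars the range from lowest to highest, crosses the median under spike-in scaling, and the red dot is the list of 10 members. The member medians of 0.62 in noise only and 0.66 in saline 24 h lie above those of the other hair bundle genes (0.20 and 0.19), while the cerebellar list in noise only reaches a median of 2.85.

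Among themselves, the members split by how closely their probes 1 followed each other over the 6 arrays. Espn and Tmc1 correlated with r = 0.98, Tmc1 and Loxhd1 with 0.97 and Tmc1 and Ptprq with 0.96, whereas Myo7a and Strc gave 0.02 and Ush1g and Strc 0.07. Each value rests on 6 arrays that share their scaling and tissue makeup, and is a description only. The 5 named genes most like the mean member pattern, of 22308 candidates above background on all arrays, were Igf1r (r = 0.997), Jmy (0.995), Ubxn2a (0.995), Lhx3 (0.992) and Rab34 (0.992). Lhx3, a transcription factor gene of hair cells, had levels of -0.74 in baseline, -0.12 in noise only, -1.02 in saline 12 h, -0.74 in dexamethasone 12 h, 0.00 in saline 24 h and -0.15 in dexamethasone 24 h. It was picked for this likeness, and not all listed hair cell transcription factor genes followed the pattern. Against baseline, Barhl1 differed by -0.19 in noise only, 0.14 in saline 12 h and -0.24 in saline 24 h. Gfi1 gave 0.27, 0.45 and 0.50 in that order, and Pou4f3 0.27, -1.19 and 0.24.

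Promoter sequences from RefSeq (GRCm38.p6) were found for 7 members, with 10 promoters, and the 250 bases before each start were searched on both strands. The E-box CAGCTG occurred in 2 of the 3 Espn promoters and in none of the others, against 13.0% of 32851 promoters. The general E-box CANNTG, which includes it, occurred in 8 of the 10 member promoters against 66.2% of all, and GTTGCC, part of the motif of RFX factors, in 1 of 10 against 10.4%. These are matches of letters in a short window.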

How the data were processed

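Cochlear RNA of 6 groups was measured on 6 arrays. The deposited scanner files hold intensity values that the authors extracted, per the file headers, with Agilent Feature Extraction 10.10.1.1, which subtracts background. The deposited series matrix holds log2 values, which equalled log2 processed signal minus a constant near the 75th percentile for 99.989% to 99.998% of probes within 0.01, with column medians of -2.964 in baseline, -2.989 after noise alone, -2.86 and -2.937 with saline at 12 h and 24 h, and -2.82 and -2.908 with dexamethasone at 12 h and 24 h. Its scale, centring and direction were found this way from the values.

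Outlier spots were left out, log2 processed signal was scaled on the 75th percentile of an array's non-control probes, and the spots of a probe were averaged. The percentile was first taken over spots, where probes spotted 10 times count 10 times. It was changed to probes after member values had been seen, which moved Ptprq after noise past 1.5-fold, and the first form is kept as an alternative. Spot error is dominated by a preset multiplicative error of 10%, and the median SD over probes spotted 10 times was 0.0353 to 0.0382.

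The members, the lists and the rule for named genes were chosen with earlier results of these data known. The rule names all members, up to 4 measured genes of each marker list, other bundle genes past 1.5-fold and the 5 genes most like the mean member pattern. The sums of marker lists are of signal divided by the 75th percentile. Some rule-named genes of other tissues are given by their list only.

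The dexamethasone contrast across 12 h and 24 h used limma 3.58.1 (lmFit, eBayes with trend) in R 4.3.3, for genes above background on at least 2 of 4 arrays. The test was tested on simulated data in 2 forms. With each gene's spread set to its own moderated estimate, it made far more false calls than its nominal rate. The simulation, not the test, was then changed to draw the spread from the prior that limma fits, which is limma's own assumption. In that form false calls were near the nominal rate and most 2-fold changes were missed. A call by this fit would need caution, and the absence of calls does not show that nothing changed. Spots were joined with pandas 2.3.3 and data.table (version 1.17.8), and figures drawn with matplotlib 3.10.9. Slide was not fitted, being the same term as time.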

Additional observations from a re-analysis of the deposited data

Results flagged for a closer look

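The difference of Pcdh15 between saline and baseline had opposite directions at the 2 times, -0.73 at 12 h and 0.58 at 24 h on the log2 scale, both beyond spot error. The saline 12 h array lies on a different slide from baseline and saline 24 h, so slide and time cannot be told apart. The difference between the times was not tested. The opposite directions rest on probe 1. Probes 2 and 3 were higher than baseline at 12 h and not measured on both arrays at 24 h. With the mean over its probes, Pcdh15 also turned higher than baseline at 12 h.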

How the results depend on the processing

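No fit with a replicate number as a block was made because each group has 1 array and the labels give no replicate numbers; dexamethasone and saline were set against each other within time by the time term of the limma fit. Median differences of the members moved by more than their spot error under spike-in scaling in saline 12 h (-0.93), saline 24 h (0.37) and dexamethasone 12 h (0.54), under normexp background correction in noise only (0.45), and with the mean over a gene's probes in saline 12 h (0.019). The count of members at least 1.5-fold apart became 1 (normexp), 2 (spike-in) and 0 (at 2-fold) in noise only, 0 (normexp, mean over probes, 2-fold) and 9 (spike-in) in saline 12 h, 3 (spike-in) and 2 (2-fold) in saline 24 h, 4 (spike-in) in dexamethasone 12 h, and 0 (normexp, 2-fold) and 2 (spike-in) in dexamethasone 24 h. The share of all genes past the mark moved as well, in noise only to 8.92% under normexp. These counts are therefore not comparable with the shares at the main setting. Pcdh15 in saline 12 h turned to 0.13 with the mean over its probes. The causes were not tested. Taking the percentile over spots, an alternative added after seeing the data, gave a median of 0.61 and 5 members in noise only and changed no other count. Of all genes past 1.5-fold, the share that was higher moved under spike-in scaling from 42.3% to 31.0% in noise only, 57.8% to 3.00% in saline 12 h, 48.2% to 12.3% in saline 24 h, 40.9% to 84.0% in dexamethasone 12 h and 47.0% to 31.8% in dexamethasone 24 h, and under quantile normalization to 45.2% in saline 12 h. The members called by limma stayed at 0 in all 12 alternatives, in which leaving out each array in turn gave 0 to 0. Genes called were 576 under spike-in scaling, 928 without the filter on dim probes and 20 without dexamethasone 12 h replicate 1, and 0 elsewhere. The 7 member probes never above background and Cdh23 limit what can be seen.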
